A study of Mus musculus with 3 samples.

Results

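The genes described here encode ion channels, or subunits of them, listed as mechanosensitive or calcium-activated: *Piezo1*, *Piezo2*, *Trpc1*, *Trpc6*, *Trpv2*, *Trpv4*, *Trpm7*, *Kcnma1* and *Kcnmb1*. These 9 genes were chosen by name with earlier results of these data known, and a probe belonged to a gene when the RefSeq transcript it was designed for, without its version, was one of that gene's transcripts. They had 14 probes, and all 9 were among the 15394 genes that were well above background on at least 1 array. RNA was read on 1-colour Agilent SurePrint G3 mouse arrays for cardiac myofibroblasts, the contractile and matrix-producing fibroblasts of the injured heart, in 3 states with 1 array each. Adherent cells were grown on plastic plates, non-adherent cells were moved from plastic into suspension on ultra-low attachment plates, and re-adherent cells were returned from suspension to plastic, so the time in culture cannot be told apart from the state. In all 3 groups the cells came from male C57BL/6J mice, 8 weeks old in 1 label field and 10 weeks old at surgery in another, with no transgene or other treatment named beyond a permanent left anterior descending artery ligation. Hearts were taken 3 days after ligation and digested, and the cells that attached overnight and did not carry CD45, a surface protein of leukocytes, were used. Each RNA sample was a mixture of material from several hearts, so a pool stands for a state and no spread between animals or cultures could be computed.

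Piezo channels are large trimeric pores that open under membrane tension and let calcium and other cations into the cell. Channels of the transient receptor potential (TRP) families, among them the Trpc, Trpv and Trpm genes, pass cations in response to lipids, swelling, heat or stretch, and several have been studied in fibroblasts as a route by which a stiff support raises calcium. The large-conductance potassium channel of *Kcnma1* opens when calcium rises, its beta 1 subunit of *Kcnmb1* makes it more sensitive to calcium, and the pair is best known from smooth muscle, where the potassium current opposes contraction.

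From plastic into suspension, 3 of the 9 genes passed 2-fold downward, where 14.7% of all genes did, and 2 passed it upward, where 17.2% did. On re-adhesion, 2 of the 9 passed 2-fold downward and 3 upward, beside 16.3% and 15.6% of all genes. Between re-adherent and adherent cells, none of the 9 passed 2-fold downward and 1 passed it upward, beside 4.9% and 4.84% of all genes. The median log2 difference of the 9 was -0.27, 0.47 and 0.19 in these 3 pairs, beside -0.07, 0.08 and 0.06 over all genes. *Kcnmb1*, *Trpc1* and *Piezo2* were the genes lower in suspension, and *Trpv4* and *Trpv2* were the genes higher there. On re-adhesion *Trpv4* and *Trpv2* were lower and *Kcnmb1*, *Trpc6* and *Trpc1* higher, and the 2 pairs share the non-adherent array. *Trpc6*, also the gene higher in re-adherent than in adherent cells, was included only through the re-adherent array, where it was highest. With probes above background on all 3 arrays only, *Kcnmb1* and *Trpc6* drop out. The upward counts were then 1 on re-adhesion and 0 between re-adherent and adherent cells.

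Differences are given on the log2 scale after each array was reduced by its 75th percentile, signals are given in intensity units before that step, and the errors combine what the scanner software assigned to each spot. They cover technical error within arrays and had a median of 0.20 in each pair over the genes well above background on both arrays. Errors of dimmer signals were larger. With 1 array a state, no difference has a replicate check and no p-value is given. The RNA came from bulk cultures, in which fewer cells of a type and less RNA per cell cannot be told apart.

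**Figure D1:**
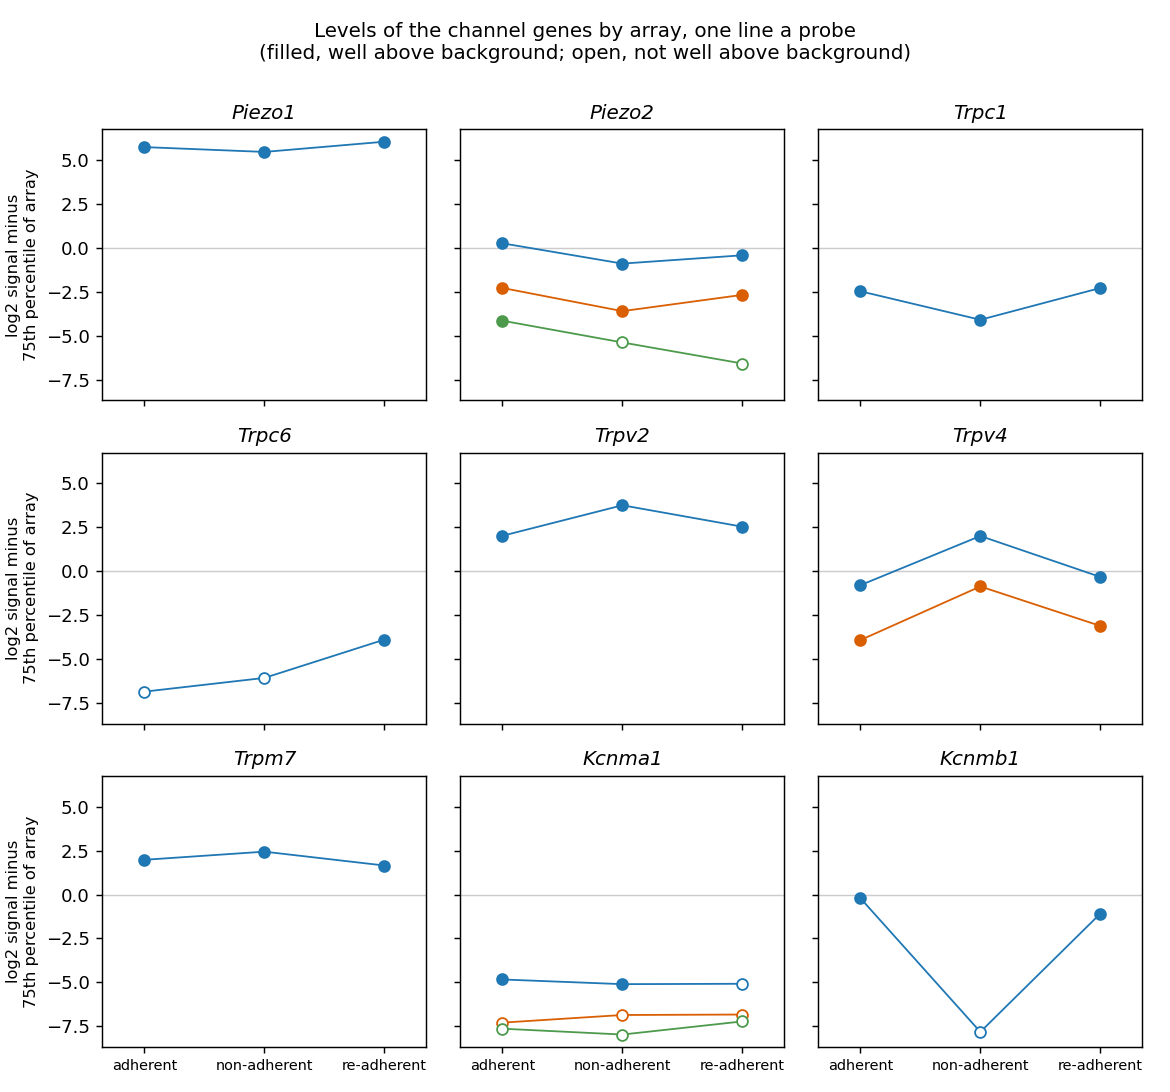
Scaled level of every probe of the channel genes in adherent, suspended and re-adherent cells, as log2 signal minus the 75th percentile of the array, with 1 line a probe. Filled points were well above background and open points were not. The *Kcnmb1* probe dropped from -0.20 to -7.81 and came back to -1.08, the 2 *Trpv4* probes peaked in suspension, and the *Piezo1* probe stayed between 5.46 and 6.04.

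*Kcnmb1*, the beta 1 subunit of the calcium-activated potassium channel, had the widest range of the 9 genes. Its probe read 565 intensity units in adherent, 3.11 in suspended and 255 in re-adherent cells, and the signal in suspension was not well above background. The scaled signal of adherent cells was at least 43.1-fold that of suspended cells, and the scaled signal of re-adherent cells at least 23.4-fold, where the bound takes the lowest signal well above background in suspension. The measured differences, which depend on how the dim spot was read, were -7.60 ± 1.45 and 6.73 ± 1.45, and became -3.46 and 2.69 when normexp background correction, which adds an offset to every signal, took the place of the software's. Both attached states were bright, and between them *Kcnmb1* differed by -0.88 ± 0.21, a level 1.84-fold lower after re-adhesion that exceeded the technical error and lay within 2-fold, though at -1.15 it passed 2-fold with no scaling between arrays.

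The 250 bases before the start of *Kcnmb1* are shown for the gene with the widest range, with CpG dinucleotides in capitals. The window came from RefSeq on GRCm38.p6, chr11:33962763-33963012 on the plus strand.
Kcnmb1: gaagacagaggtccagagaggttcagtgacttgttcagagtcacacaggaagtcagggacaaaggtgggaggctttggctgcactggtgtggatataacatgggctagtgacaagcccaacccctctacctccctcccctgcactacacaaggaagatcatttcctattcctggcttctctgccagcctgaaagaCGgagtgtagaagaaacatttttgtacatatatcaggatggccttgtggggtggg
Counted over 250 bases before and 50 after the start, the *Kcnmb1* window held 1 CpG, against a median of 7 over 32851 windows, of which 14.1% held at most 1. The *Trpv2* windows, which belong to alternative starts, held 2, 2 and 7. The windows of *Trpc6*, *Trpc1*, *Trpv4*, *Piezo1*, *Trpm7* and *Kcnma1* held 17, 22, 30, 34, 35 and 36.

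*Kcnma1*, which encodes the pore of the same potassium channel, was close to background in every state. The brightest of its 3 probes read 22.9, 20.4 and 16.1 units in adherent, suspended and re-adherent cells, and was well above background on the first 2 only. Its differences were -0.27 ± 0.42 between non-adherent and adherent cells, 0.02 ± 0.53 between re-adherent and non-adherent cells and -0.24 ± 0.54 between re-adherent and adherent cells, each within its technical error. The other 2 probes, designed for other transcripts of the gene, read between 2.80 and 6.04 units and were not well above background on any array. The pore gene thus had no measurable order between states, while its beta 1 subunit changed from bright to background and back. Signals of different probes were not set against each other, so the ratio of the 2 subunits is not given.

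*Trpv4*, a cation channel of the vanilloid family that opens on swelling, warmth and stretch and has been studied in the differentiation of fibroblasts, moved in the opposite direction to *Kcnmb1*. Its brighter probe read 376 units in adherent, 2797 in suspended and 433 in re-adherent cells, well above background in each. The difference between non-adherent and adherent cells was 2.80 ± 0.20, a 6.95-fold higher level in suspension, and 517 of 15394 genes had a higher one. On re-adhesion the difference was -2.33 ± 0.20, a 5.02-fold lower level. The second *Trpv4* probe read 43.2, 383 and 62.9 units and gave 3.05 ± 0.23 and -2.24 ± 0.22, so both probes placed the non-adherent array highest by far more than the technical error. Re-adherent cells stood 0.47 ± 0.21 above adherent cells by the first probe and 0.81 ± 0.25 by the second, within 2-fold by both. By distance over the first 2 differences, among genes well above background on every array, the 3 nearest to *Trpv4* were *Cd300c2*, a receptor gene of myeloid cells, *Dennd1c*, which encodes a DENN-domain protein, and *1700001K19Rik*, each at a distance of 0.06, which is below the technical error.

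The corresponding 250 bases of *Trpv4* are shown as the member with the largest gain in suspension, with CpG in capitals, from chr5:114658422-114658671 on the minus strand of the same build.
Trpv4: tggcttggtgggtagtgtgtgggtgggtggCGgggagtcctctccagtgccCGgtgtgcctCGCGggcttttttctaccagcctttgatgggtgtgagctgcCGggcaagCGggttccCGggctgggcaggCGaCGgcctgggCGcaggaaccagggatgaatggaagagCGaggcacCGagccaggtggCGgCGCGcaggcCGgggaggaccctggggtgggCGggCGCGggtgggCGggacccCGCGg
These 250 bases held 22 CpG and the whole window 30, and 11.7% of all windows held at least 30.

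*Trpv2*, a vanilloid channel of the plasma membrane and endosomes that is studied as a stretch-activated channel in heart and vessels, followed *Trpv4* with smaller differences. Its single probe read 2631, 9383 and 3136 units in adherent, suspended and re-adherent cells, all well above background. The level was 3.33-fold higher in suspension than on plastic, a difference of 1.74 ± 0.20. On re-adhesion it was 2.32-fold lower, a difference of -1.22 ± 0.20. Re-adherent cells stood 0.52 ± 0.20 above the first adherent cells, so the order was non-adherent, re-adherent, adherent, with each step larger than its technical error and the last one within 2-fold.

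Both vanilloid channels are also known from macrophages and endothelial cells, and markers of these cells were higher in suspension too. Of 12 listed macrophage markers 11 were measured, *Cd68* being the exception, and 10 of the 11 were over 2-fold higher in suspended than in adherent cells, with a median difference of 2.67. *Itgam* stood at -0.84, with another probe at 1.96. On re-adhesion 9 were lower and 1 higher, with a median of -1.58, beside 16.3% and 15.6% of all genes. Between re-adherent and adherent cells 0 were lower and 5 higher, with a median of 0.92, beside 4.9% and 4.84% of all genes. The sum of the scaled signals of the 11 markers was 167, 947 and 329 in adherent, suspended and re-adherent cells, and none of the 11 was at background on any array. *Ptprc*, which encodes CD45, read 355, 2441 and 532 units. Of 8 endothelial markers 5 were over 2-fold higher in suspension, with a median of 1.18. By the signals as read, 7 were over 2-fold lower on re-adhesion, with a median of -2.67. Compared with the first adherent cells 5 were lower after re-adhesion, with a median of -1.77. The shares of all genes were 17.2%, 16.3% and 4.9%. The sums were 23.3, 35.4 and 22.2, in which *Kdr* read 9446, 7939 and 10320 units. A second *Kdr* probe gave 1.96 and -3.18 in the first 2 pairs. *Tie1* and *Emcn* were not well above background after re-adhesion. The part of these cells in the values of *Trpv2* and *Trpv4* was not tested.

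*Trpc1*, a canonical TRP channel subunit that joins other subunits in calcium entry after receptor activation or emptying of stores, was lowest in suspension. Its probe read 119, 41.2 and 112 units in adherent, suspended and re-adherent cells, all well above background. The differences were -1.62 ± 0.25 into suspension and 1.81 ± 0.25 on re-adhesion, 3.08-fold lower and 3.50-fold higher. The 2 attached states differed by 0.19 ± 0.22, which was within the technical error, and without scaling between arrays the sign of that difference turned. With normexp correction the first 2 differences were -0.77 and 0.99, both within 2-fold.

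*Trpc6*, a canonical TRP channel opened by diacylglycerol and studied as a driver of myofibroblast conversion, was well above background in re-adherent cells only. Its probe read 5.67, 10.4 and 36.7 units in adherent, suspended and re-adherent cells, so that adherent and suspended cells have only an upper bound. The re-adherent level was at least 3.37-fold that of non-adherent cells and at least 2.63-fold that of adherent cells. The measured differences were 2.18 ± 0.52 and 2.96 ± 0.99, and that between the first 2 arrays, 0.78 ± 1.08, was within its error with both signals at background. With normexp correction the first 2 were 0.79 and 0.89, within 2-fold. *Trpc6* was the member over 2-fold apart between the 2 attached states. Among the 8 genes with a promoter window, which leave out *Piezo2*, its window alone held a CArG box, the element bound by serum response factor in muscle and cytoskeletal genes, searched on both strands, and 1.63% of all windows held it. The 30 bases around it, with the box in capitals, lay at chr9:8544010-8544039 on the plus strand and the box began 122 bases before the start.
Trpc6: cctttcgatcCCTTTAAAGGtggggatcgt
No binding was measured in these samples, and the match describes letters only.

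*Piezo1*, the stretch-gated channel of most non-neuronal cells, was bright in every state and varied little. Its probe read 34730, 30725 and 35708 units in adherent, suspended and re-adherent cells. The difference was -0.27 ± 0.20 into suspension, 0.58 ± 0.20 on re-adhesion and 0.31 ± 0.20 between the attached states, all within 2-fold. The first was close to the size of its technical error and turned to 0.02 when the median difference of neighbouring spots on the slide was subtracted. That median difference was -0.30 for *Piezo1* and typically -0.31 over all spots, so the change was not particular to the place of its spot. With quantile scaling the other 2 were 0.13 and 0.03, and with no scaling 0.22 and 0.04, so the order of the states was not settled.

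*Piezo2*, the Piezo channel of touch and proprioceptive neurons, was lower in suspension by each of its 3 probes. The brightest read 784, 377 and 407 units in adherent, suspended and re-adherent cells, and the second 135, 58.0 and 85.6, all well above background. They gave -1.15 ± 0.20 and -1.32 ± 0.23 between non-adherent and adherent cells, 2.23-fold and 2.49-fold lower. On re-adhesion the brightest probe stood 0.47 ± 0.21 and the second 0.93 ± 0.24 above suspension, both within 2-fold, and compared with the first adherent cells they stood at -0.68 ± 0.20 and -0.39 ± 0.23. The third probe read 37.2, 16.9 and 5.72 units and was above background in adherent cells only, so that it gave bounds of at least 2.36-fold over suspension and at least 1.69-fold over re-adherent cells. By the 2 probes measured on every array the order was adherent, re-adherent, non-adherent. The brightest gave -0.95 into suspension with normexp correction, within 2-fold, and when neighbouring spots on the slide were subtracted it gave -0.83 into suspension and -0.18 on re-adhesion, where the sign turned.

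*Trpm7*, a divalent cation channel that carries its own kinase domain and takes up magnesium and calcium, had its highest level in suspension without reaching 2-fold in any pair. Its probe read 2556, 3769 and 1697 units in adherent, suspended and re-adherent cells, all well above background. The differences were 0.46 ± 0.20 into suspension, -0.79 ± 0.20 on re-adhesion and -0.32 ± 0.20 between the attached states, each larger than its technical error. The second of these was -1.06 with the authors' own scaling, past 2-fold. The order was non-adherent, adherent, re-adherent, which is not that of *Trpv2* and *Trpv4*.

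**Figure D2:**
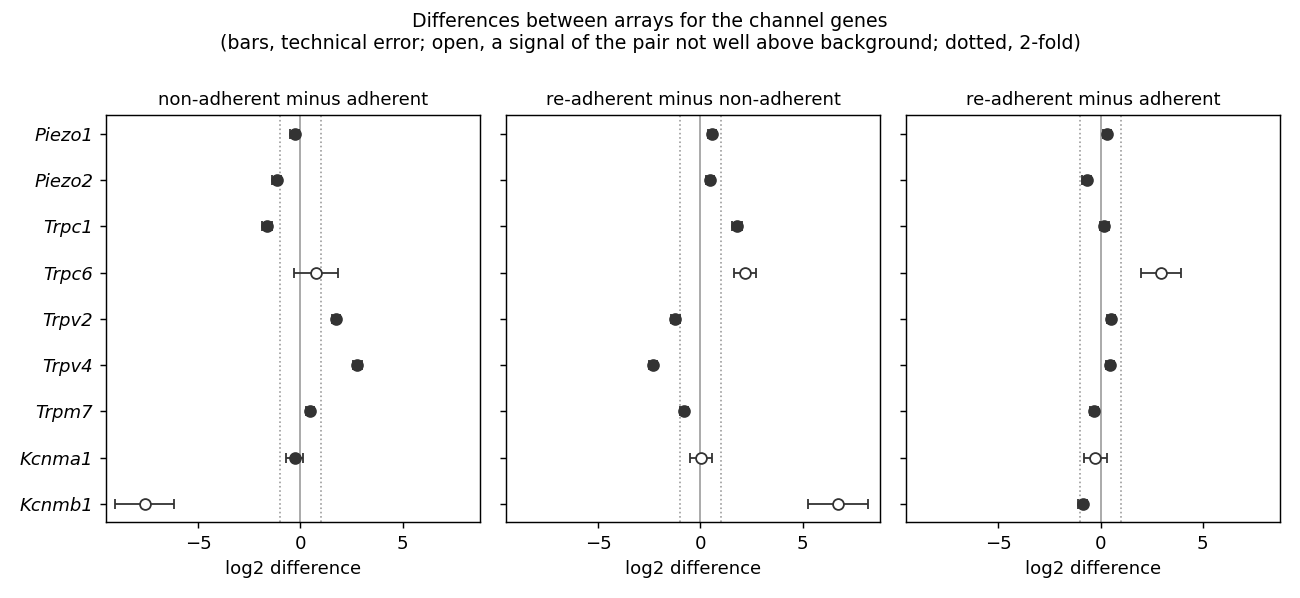
Log2 differences of the 9 channel genes in the 3 pairs of arrays, with bars for the technical error of the pair of spots, open points where a signal of the pair was not well above background and dotted lines at 2-fold. *Kcnmb1* lies at -7.60 and 6.73 in the first 2 pairs, *Trpv4* and *Trpv2* lie on the opposite side of 0 in both, and in the third pair every gene but *Trpc6* lies within 2-fold.

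**Figure D3:**
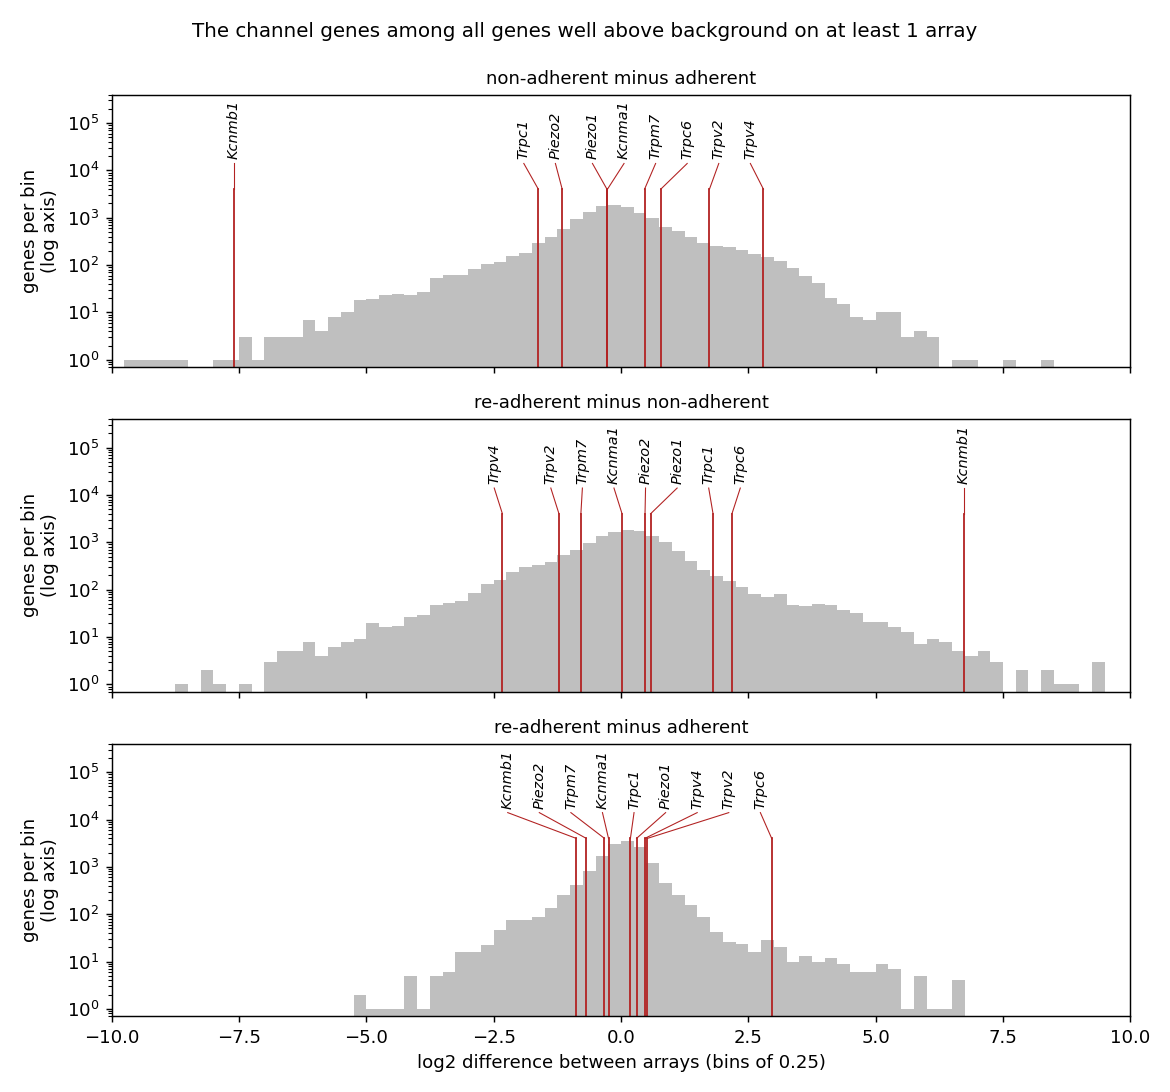
Number of genes per bin of log2 difference, on a log axis, over the 15394 genes well above background on at least 1 array in each pair, with red lines at the channel genes. *Trpv4* lies at 2.80, -2.33 and 0.47. The lines of *Kcnmb1* in the first 2 pairs, of *Kcnma1* in the last 2 and of *Trpc6* in all 3 rest on signals not well above background. The exact place of these lines is not measured.

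The states were checked against their label with markers of myofibroblasts and of the other cells a heart digest can hold. Beside the counts that follow, 14.7% of all genes were over 2-fold lower and 17.2% higher in suspension, and 15.6% were higher on re-adhesion. Of 5 myofibroblast markers, *Acta2*, *Tagln*, *Cnn1* and *Myl9* were over 2-fold lower in suspension and over 2-fold higher again on re-adhesion, as *Kcnmb1* was, and *Postn* was within 2-fold, with summed scaled signals of 1636, 29.9 and 1629. The 9 fibroblast markers were above background on every array, with sums of 1103, 884 and 831, and 4 were over 2-fold lower and 2 higher in suspension. *Thy1* stood at -3.50 and 3.27 in the first 2 pairs and *Tcf21* at -1.75 and 1.89, as *Kcnmb1* did in direction, while *Lum* stood at 3.56 and -6.41 and *Dcn* at 1.69 and -3.20. *Kcnmb1* is also a gene of vascular smooth muscle, and of 8 markers of smooth muscle and pericytes 3 were lower and 2 higher in suspension by over 2-fold. Their median was 0.09 into suspension, with sums of 18.8, 15.1 and 14.1. The 2 higher ones, *Kcnj8* and *Abcc9*, were at background in both attached states. They were at least 4.10-fold and 5.62-fold higher in suspended than in adherent cells, and *Rgs5* and *Notch3* stood at 0.79 and 0.62. *Myh11*, the smooth muscle myosin, read 213, 6.24 and 33.6 units, not well above background in suspension and well above it in both attached states. It was 5.28-fold lower after re-adhesion than before. *Cspg4* stood at -2.06 into suspension and at -1.43 between the attached states. *Des*, which stood at -2.17 and 2.61 in the first 2 pairs, was 1.35-fold higher after re-adhesion than before and *Pdgfrb* 1.24-fold lower. By the signals as read, 4 of the 8 were over 2-fold lower after re-adhesion than before and 0 higher, with a median of -1.11. The shares of all genes were 4.9% and 4.84%. Of these 4, *Rgs5* and *Abcc9* were not well above background in re-adherent cells. The part of smooth muscle cells in the *Kcnmb1* values was not tested. *Piezo2* is a neuronal gene. Of the nerve and glial markers reported here *Tubb3*, a tubulin of neurons, read 24521, 2405 and 39962 units, lowest in suspension as *Piezo2* was. *Sox10*, a factor of glial cells, read 83.4, 93.0 and 91.9 units and *S100b* 74.8, 207 and 166. Unlike *Tubb3*, both were lowest in adherent cells, so the reported markers did not share a direction. The part of nerve cells in the *Piezo2* values was not tested. Of 8 cardiomyocyte markers 5 were measured, with sums of 1.23, 1.95 and 3.38, in which *Tnnt2* read 593, 955 and 1646 units, and *Actn2*, *Pln* and *Ryr2* were not well above background on any array.

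Lists of 116 other channel and calcium genes gave the setting of these values, and 83 of them were measured. Into suspension 12 of the 83 passed 2-fold downward and 21 upward, on re-adhesion 13 were lower and 9 higher, and between the attached states 2 were lower and 9 higher. Over all genes these shares were 14.7% and 17.2%, 16.3% and 15.6%, and 4.9% and 4.84%, which apply to every count below. The median differences of the 83 were 0.11, -0.18 and 0.04, beside -0.07, 0.08 and 0.06 for all genes.

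The list of other mechanosensitive channel subunits left out the Piezo, Trpc, Trpv and Trpm genes but held *Pkd2*, a TRP polycystin. Of its 12 measured genes 3 passed 2-fold downward and 2 upward in suspension, beside 14.7% and 17.2% of all genes. Their median was -0.49 beside -0.07. The stretch-sensitive potassium channel *Kcnk2* (TREK-1) read 88.1, 4.16 and 61.7 units, like *Kcnmb1* at background in suspension, and was at least 6.73-fold and 5.66-fold higher in the 2 attached states. *Asic3* and *Tmem63a* were lower in suspension, at -1.78 and -1.03, and *Asic1*, at least 5.59-fold, and *Scnn1a*, at 1.20, were higher. Of 5 measured genes listed as auxiliary to Piezo channels, *Stom*, which holds acid-sensing channels in check, was higher in suspension at 2.11. On re-adhesion *Stom* was lower at -1.10, with 1.88 and -1.83 by a second probe. *Mdfi*, an auxiliary subunit, stood at 1.07 and -1.56.

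Of 12 other Trpc, Trpv, Trpm and Mcoln genes measured, 5 were higher and 1 lower by over 2-fold in suspension. The shares of all genes were 17.2% and 14.7%. The median of 0.48 was 0.12 with normexp correction and -0.31 with no filter on dim probes. *Mcoln2*, a lysosomal channel, stood at 3.14 and -2.90 in the first 2 pairs, and *Mcoln1*, *Trpm4* and *Trpc4* at 1.20, 1.30 and 1.22 into suspension. *Trpm2*, an oxidant-gated channel of leukocytes, was above background in suspension only, at least 4.67-fold over adherent cells. *Trpm6*, the closest relative of *Trpm7*, was the gene lower in suspension, at -2.58, and stood at 1.94 on re-adhesion.

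Among the other calcium-activated channel subunits 7 of 19 were measured, and the beta subunits *Kcnmb2* and *Kcnmb3* were at background on all arrays. *Kcnn4*, the intermediate-conductance potassium channel of leukocytes and fibroblasts, stood at 2.90, -1.52 and 1.38 in the 3 pairs, opposite to *Kcnmb1* in the first 2. *Ano1*, a calcium-activated chloride channel, stood at 1.17 and -1.47, and *Ano10* at 1.02 on re-adhesion.

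For calcium entry and release from stores, 13 genes were measured, 4 of them over 2-fold higher and 1 lower in suspension, beside 17.2% and 14.7% of all genes. *Atp2a3*, a store pump, *Orai1* and *Orai2*, store-operated channels, and the release channel *Ryr1* stood at 2.26, 1.27, 1.02 and 1.52, and the release channel *Itpr1* at -1.40. A second *Orai2* probe gave -0.21. Of 10 measured voltage-gated calcium channel subunits, 3 were lower and 2 higher in suspension by the signals as read, beside 14.7% and 17.2% of all genes. *Cacna1c*, the pore of the L-type channel, read 24.1, 5.29 and 240.0 units and was at least 22.0-fold higher in re-adherent than in suspended cells, and 11.96-fold higher than in adherent cells. Its signal in suspension was not well above background, so adherent cells were at least 1.84-fold higher and a 2-fold difference into suspension was not shown. *Cacna1d* stood at 2.77 into suspension, which a second probe gave as 1.21, *Cacna1h* at 1.16 and *Cacnb3* at -1.17, and *Cacnb4*, well above background in adherent cells only, was at least 2.62-fold higher there than in suspension.

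Of 7 measured genes for calcium extrusion, *Slc8b1*, a mitochondrial sodium-calcium exchanger, stood at 2.43 into suspension, *Slc8a3* at -1.65, which a second probe gave as 0.01, and *Atp2b2* at -1.49, while *Atp2b1* was just over 2-fold lower on re-adhesion. All 18 genes of calmodulin, calcineurin and NFAT signalling, which read calcium after it enters, were measured, and 13 were within 2-fold into suspension. *Nfatc2* stood at 3.36, -1.81 and 1.55 in the 3 pairs, and a second probe gave 2.06, -1.57 and 0.49. *Rcan2*, an inhibitor of calcineurin, stood at -2.07 and 1.48 in the first 2, and *Camk1* and *Camk2g* at 1.77 and -1.36 into suspension. *Calm3* stood at 1.06, and a second probe gave -1.13.

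**Figure D4:**
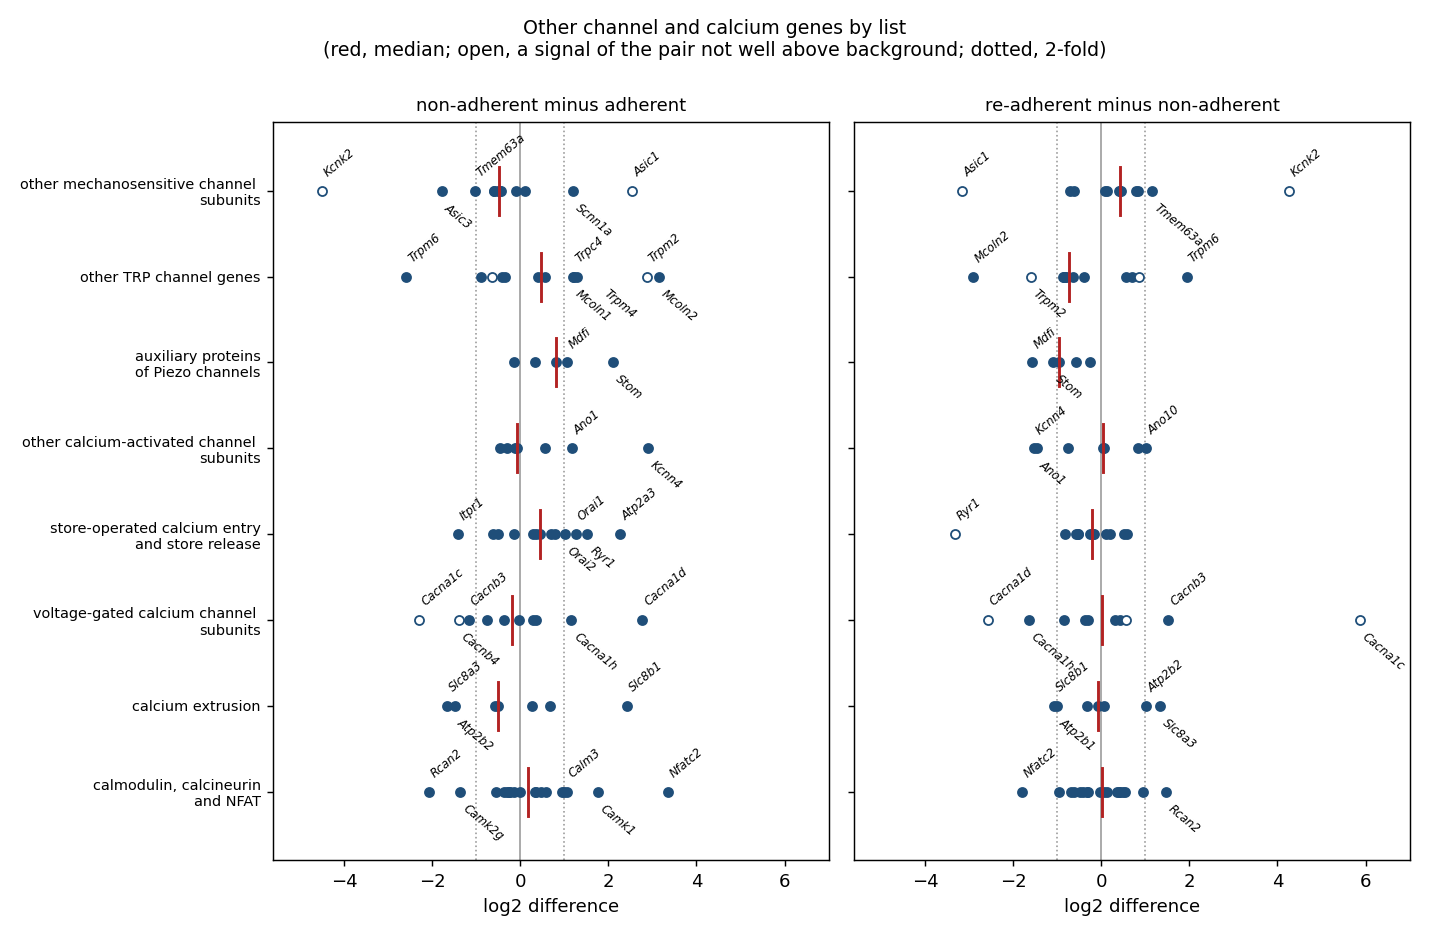
Log2 differences of the 83 other channel and calcium genes by list, into suspension (left) and on re-adhesion (right), with red bars at the list medians, open points where a signal of the pair was not well above background and dotted lines at 2-fold. *Kcnk2* lies at -4.50 and 4.26, *Nfatc2* at 3.36 and -1.81, and the red bars of the 8 lists lie within 2-fold in both pairs.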

How the data were processed

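Total RNA from 3 pools of cardiac myofibroblasts (adherent, non-adherent, re-adherent, 1 array each, grouped by the sample titles) was labelled with Cy3 and hybridised to Agilent arrays of 1 slide. The scanner files deposited by the authors hold intensity values from Agilent Feature Extraction 10.10.1.1: background-subtracted, spatially detrended processed signals, the error of each spot and flags. The deposited value table of the series holds intensity values equal to the processed signal times a constant per array, 1.52 for adherent, 1.52 for non-adherent and 1.62 for re-adherent cells. Its normalization is not given in the sources used here, and its array medians were 60.8, 61.8 and 50.7.

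No non-control spot was saturated, and spots flagged as non-uniform or population outliers were left out. Processed signals were taken to log2 and centred on the 75th percentile of the array (651, 697 and 541 units) over its 59305 non-control spots, and spots of a probe were averaged. Of these spots 58.1%, 59.9% and 53.9% were well above background. Transcript names matched to RefSeq (GRCm38.p6) gave symbols to 27229 of 55665 probes. Of a gene's probes well above background on at least 1 array, the one with the highest mean stood for the gene. A fold was called over 2-fold, with no p-value, and a fold against a signal not above background is a bound, the brighter scaled signal over the higher of the dim signal and the lowest signal above background on that array. The scripts were tested on simulated data. Python 3.11.15, pandas 2.3.3, R 4.3.3 and limma 3.58.1 were used. Promoter windows came from RefSeq for 8 of the 9 genes, all but *Piezo2*. No protein or probe sequences were used. Some markers on the nerve cell list are not reported here.

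The genes and lists were chosen with earlier results of these data known. Named were all members by every probe, the genes of each list over 2-fold in any pair (at most the 6 with the largest absolute difference into suspension), the 3 genes nearest to each member over 4-fold different, and marker genes. The neighbours of *Kcnmb1* and *Trpc6* are not given, since their distances rest on signals not above background. Alternatives were other scalings, normexp background correction with an offset of 50, other filters on dim probes, dim signals raised to a floor, the mean over probes, flagged spots kept, a correction by slide position and a 4-fold call. Normexp was run on the median signals, the only foreground intensity column in these files besides the processed signal. The number of arrays limits the precision.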

Additional observations from a re-analysis of the deposited data

How the results depend on the processing

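No paired analysis was possible because a state had a single array, and no replicate could be left out. No member reversed a 2-fold difference under any alternative. After normexp correction the count of members over 2-fold lower in suspension was 1 in place of 3, the count over 2-fold higher on re-adhesion was 1 in place of 3, and the count over 2-fold higher in re-adherent than in adherent cells was 0 in place of 1. With probes above background on all 3 arrays only, the last 2 counts were 1 and 0, since *Kcnmb1* and *Trpc6* left the comparison. Over 4-fold, 1 member was lower and 1 higher into suspension, and 1 was lower and 2 higher on re-adhesion. Between re-adherent and adherent cells 0 were lower and 1 higher over 4-fold. The share of all genes over 4-fold was not computed, so the 4-fold counts have no background to be read against. The count over 2-fold lower in re-adherent than in adherent cells was 1 in place of 0 with the authors' values, with no scaling, with the mean over probes and with the correction by slide position, the gene being *Piezo2* with the mean over probes and *Kcnmb1* in the others. *Kcnmb1* ranged from -7.60 to -3.46 into suspension, *Trpv4* from 2.55 to 3.09, *Trpv2* from 1.74 to 1.95, *Trpc1* from -1.62 to -0.77 and *Piezo2* from -1.24 to -0.83, and the lowest sizes of *Trpc1* and *Piezo2* were within 2-fold. *Trpm7* passed 2-fold on re-adhesion under 3 of 11 alternatives, reaching -1.35. On re-adhesion the median of all genes moved from 0.08 to -0.20 with the authors' values and -0.28 with no scaling, and the split of lower against higher calls from 2504 and 2399 to 3271 and 1689 and to 3598 and 1524. Between the attached states these settings took the split from 754 and 745 to 1004 and 551 and to 1205 and 483. The correction by slide position subtracted values with medians of -0.31, 0.34 and 0.19 over all spots in the 3 pairs. It therefore also moved all genes together. With the correction by slide position the splits were 1662 and 3343 into suspension (2266 and 2647 without it, with the median of all genes at 0.19 in place of -0.07), 3594 and 1540 on re-adhesion and 1035 and 534 between the attached states, and with normexp 1542 and 1877, 1555 and 1693, and 187 and 330. Between the attached states 336 and 432 genes were called with probes above background on all arrays, and 454 and 627 with dim signals raised to the floor. Signals near background limit what can be ordered for *Kcnma1* and *Trpc6*.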
